A study of Mus musculus with 20 samples.

Results

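The cytosolic ribosomal protein genes encode the proteins of the ribosome that works in the cytoplasm. They were taken as the rows whose symbol is Rpl or Rps followed by a number and at most 1 letter (a, x, y or l) and 1 digit, together with Rplp0, Rplp1, Rplp2 and Rpsa, without the rows named as pseudogenes (-ps) and without the S6 kinase genes. This gave 88 of the 39179 genes in the count tables, 52 of the large subunit and 36 of the small subunit. Of the 88, 83 are annotated as protein coding and 5 as pseudogenes (Rpl6l, Rps3a2, Rps3a3, Rps4l and Rps12l1). Levels are given in CPM, the counts of a gene scaled to the same library total. The test took in genes over 1 CPM in 3 or more of the 20 mice, which kept 84 of the 88 and 14792 genes in all. At this limit, Rps12l1 passed with 0.528 to 1.50 CPM, while Rpl3l (0.188 to 0.890 CPM) and Rpl24 (0.199 to 0.726 CPM) did not.

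Striatum was taken from 20 male mice of generation 17 of a selection experiment, at about 6.5 months of age. The High-Active line was bred for high activity in the home cage, and the Control line was kept without selection. Both lines started from the same inter-cross of inbred strains, and there is 1 line of each kind. In each line, 5 mice received saline and 5 received 0.25 mg/kg amphetamine, and tissue was collected 2 hours after the injection. Parents were shared by several mice, with 5 parent pairs behind the 10 High-Active mice and 8 behind the 10 Control mice.

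A ribosome holds 1 copy of nearly every ribosomal protein, and the proteins of the stalk, which recruits translation factors, are the known exception. The messenger RNAs of these proteins are short and abundant and start with a stretch of pyrimidines (the TOP motif), through which their translation depends on TOR signaling. In mammals each protein is usually made from 1 gene with introns, while many intronless processed copies lie elsewhere in the genome, and a read from a messenger RNA can match such a copy as well as its parent. In neurons, ribosomal protein messenger RNAs are also carried into dendrites and axons.

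Several members differ from a processed copy at only a few bases, which is shown here for 3 members that passed the test between the lines. Each pair gives a stretch of the coding sequence of the member and the matching stretch of its copy (annotated transcripts of GRCm38, 5′ to 3′), with the differing bases in capitals. Rps26 lies at chr10:128624534-128626747 (minus strand) and its copy Rps26-ps1 at chr8:107439131-107439579 (minus strand), and over 345 coding bases they differed at 2.
Rps26: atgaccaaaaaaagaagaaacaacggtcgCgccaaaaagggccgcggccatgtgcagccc
Rps26-ps1: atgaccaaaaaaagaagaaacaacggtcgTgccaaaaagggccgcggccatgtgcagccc
Rps13 lies at chr7:116331505-116334195 (minus strand) and Rps13-ps1 at chr8:87047689-87048226 (plus strand), with 2 differences over 453 coding bases.
Rps13: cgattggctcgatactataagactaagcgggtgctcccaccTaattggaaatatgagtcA
Rps13-ps1: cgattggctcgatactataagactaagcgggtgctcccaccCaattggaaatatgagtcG
Rpl10a lies at chr17:28328471-28331033 (plus strand) and Rpl10a-ps1 at chr1:64993951-64994604 (minus strand), with 2 differences over 648 coding bases, both in the start codon.
Rpl10a: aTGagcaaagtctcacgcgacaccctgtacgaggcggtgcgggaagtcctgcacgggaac
Rpl10a-ps1: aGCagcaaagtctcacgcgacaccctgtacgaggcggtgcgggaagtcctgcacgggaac

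Counts on genes summed to between 32388971 and 53710713 per mouse. A separate row, for alignments to more than 1 place, held 5.70% to 7.01% of all counts, rows that name no gene included. The 88 genes together took 0.868% to 1.19% of the counts on genes. This share was 1.03% ± 0.0775 in Control and 1.09% ± 0.0837 in High-Active mice (SD, n = 10 mice each), so the lines overlapped. Markers of striatal projection neurons were present in every mouse, with a summed level of 5099 to 8404 CPM over 11 genes. As the tissue was sequenced in bulk, fewer cells of a type and less RNA per cell cannot be told apart. Several mice shared parents, and the p-values measure the spread between these mice.

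Levels were compared between genes only per length, as mean CPM per kb of the annotated transcript, which takes the reads of a gene as coming from that 1 transcript. Over the 79 tested protein-coding members the median level was 134 CPM per kb, with quartiles of 98.3 and 179 CPM per kb. The highest level was that of Rplp1, a stalk protein, with 674 CPM per kb, followed by Rps29 with 421 and Rps15 with 410 CPM per kb. The other stalk genes were lower, with 74.5 CPM per kb for Rplp0 and 115 CPM per kb for Rplp2. Rpsa, a small-subunit protein also known as the laminin receptor, stood at 187 CPM per kb.

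Of 7 paralogs with a row, 6 stood below their parent gene per kb. Rpl7l1 (10.2 CPM per kb) was the lowest of the tested protein-coding members, followed by Rps27l, a p53 target (15.4 CPM per kb), against 150 CPM per kb for Rpl7 and 79.5 for Rps27. Rps4l, annotated as a transcribed processed pseudogene, stood at 6.11 CPM per kb against 212 for Rps4x. The exception was Rpl22l1, which had 74.2 CPM per kb against 35.6 for Rpl22. Rpl3l, the muscle paralog of Rpl3, had 8 to 38 counts per mouse, Rpl39l had 0 to 7 and Rpl10l, a testis gene, had at most 1, and none of these was tested. Rpl24, a core gene of the large subunit, had only 7 to 32 counts per mouse. Its exons overlap those of Gm28037 on the same strand, and the part of this overlap in the low count was not tested.

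Between the lines, the ribosomal protein genes leaned slightly towards High-Active mice, and few single genes passed the test. The log2 fold change (High-Active over Control, averaged over both treatments, given with its standard error, SE) was above 0 in 64 of the 84 members (76.2%), against 49.7% of all tested genes. Its median was 0.05 over the members and 0.00 over all tested genes, with quartiles of 0.01 and 0.09 over the members. At an adjusted p under 0.1 (edgeR's quasi-likelihood test, adjusted over all tested genes), 10 of the 84 members (11.9%) were called, against 14.5% of all tested genes. Of these, 9 were higher in High-Active mice (10.7%, against 7.63% of all genes) and 1 was lower (1.19%, against 6.90%). The share called is below the background, so the members did not stand out by the number of calls. In no member did the 2 lines separate completely in log2 CPM, which happened in 0.264% of all tested genes. Large-subunit genes (39 of 48 above 0, median 0.05) and small-subunit genes (25 of 36, median 0.05) had similar medians.

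**Figure D1:**
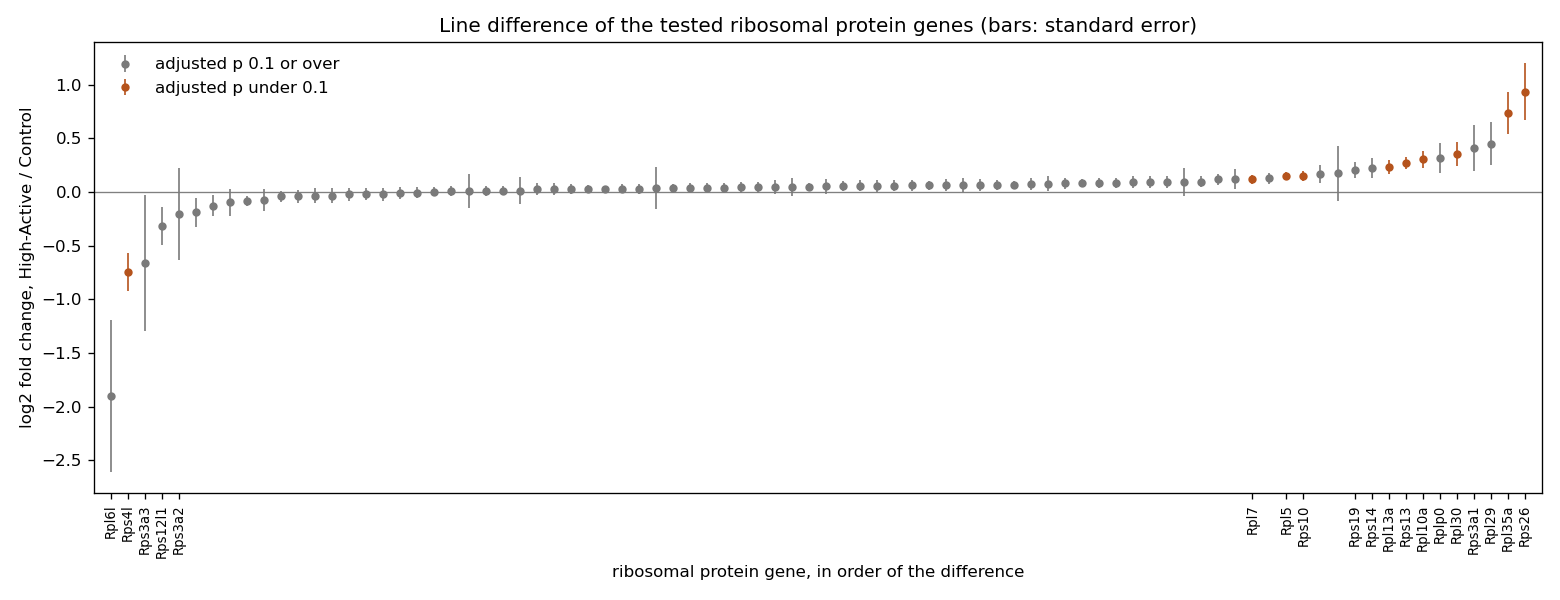
Log2 fold change between the lines (High-Active over Control) of each of the 84 tested ribosomal protein genes, ordered by size, with its standard error. The 10 genes with an adjusted p under 0.1 are in orange, and names are given for these and for the genes past 0.2 on either side. Most genes lie just above 0 with small errors, and the genes at both ends have the widest errors.

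Some cell-type markers also differed between the lines. Of 12 markers of cortical excitatory neurons, 4 were called, all lower in High-Active mice. Their summed level ranged from 311 to 861 CPM in Control mice (median 690) and from 174 to 991 in High-Active mice (median 335). Of 10 oligodendrocyte markers, 2 were called, both higher, and the sum ranged from 4151 to 6947 CPM in Control mice and from 5759 to 7555 in High-Active mice. None of these markers was at 0 in all mice. Of 8 astrocyte markers, 3 were called higher and 2 lower, with sums of 3743 to 4536 CPM in Control mice and 3599 to 4138 in High-Active mice. Of 8 microglia markers, 0 were higher and 2 lower (374 to 467 and 357 to 453 CPM), and of 8 endothelial and pericyte markers 1 was higher and 0 lower (217 to 307 and 269 to 362 CPM). None of the 11 striatal projection neuron markers was called, with 1 of 11 above 0 and a median of -0.13, and none of the 8 choroid plexus markers, with 8 of 8 above 0, a median of 0.86 and sums of 22.3 to 746 and 32.7 to 915 CPM. These counts stand against 14.5% of all genes. The part of the astrocyte, microglia, endothelial and pericyte, striatal projection neuron and choroid plexus lists in the line differences of the members was not tested. With scores of the cortical and oligodendrocyte marker lists as covariates, 2 members were called in place of 10, Rps4l and Rps13. The median of the members was then 0.03. The calls also went down to 2, the same 2 genes, when counts were summed over mice of the same parents. The share of all genes called is not given here for either fit. The drop can therefore not be set against that of other genes.

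Among the small-subunit genes that were called, Rps13 had the smallest p-value. Rps13 ranged from 56.2 to 71.8 CPM in Control mice (median 65.1) and from 64.9 to 87.1 in High-Active mice (median 79.1). Its log2 fold change was 0.27 (SE 0.05, adjusted p = 0.00725), and the ranges of the lines overlapped only between 64.9 and 71.8 CPM. Rps10, which lies near the entry of the messenger RNA channel, ranged from 88.6 to 108 CPM in Control mice (median 99.9) and from 94.2 to 123 in High-Active mice (median 111). The log2 fold change of Rps10 was 0.15 (SE 0.05, adjusted p = 0.0684), and the call was kept in 12 of the 20 fits that left out a mouse. Its exons overlap those of Gm15420 on the opposite strand. The strand setting of the counting is not given, and the part of this overlap in the count was not tested. Rps26, a protein at the exit of that channel, ranged from 8.43 to 86.6 CPM in Control mice (median 34.4) and from 40.7 to 97.6 in High-Active mice (median 68.0). Its log2 fold change of 0.93 (SE 0.27, adjusted p = 0.0413) was the highest of the 84. Its level and that of its copy are given together further on.

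Rps4l was the only member that edgeR's quasi-likelihood test on all mice called lower in High-Active mice. Rpl6l was also called lower by DESeq2, by the likelihood-ratio test and in saline-treated mice alone, and Rps3a3 by limma-voom with a family block. Rps4l ranged from 3.42 to 10.4 CPM in Control mice (median 6.08) and from 2.56 to 4.86 in High-Active mice (median 3.71). Its log2 fold change was -0.75 (SE 0.18, adjusted p = 0.0167). The highest level, 10.4 CPM, was in the Control amphetamine mouse 457. Rps4x, the X-linked gene of the same protein family, had a log2 fold change of 0.03 (SE 0.05, adjusted p = 0.695). Only 2.03% of the 100-base stretches of Rps4l occurred in another annotated gene, counted or not.

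Among the large-subunit genes that were called, the widest difference was that of Rpl35a, a gene in which mutations cause Diamond-Blackfan anaemia in humans. Rpl35a ranged from 31.7 to 96.5 CPM in Control mice (median 38.2) and from 59.0 to 111 in High-Active mice (median 78.4), and the log2 fold change was 0.73 (SE 0.19, adjusted p = 0.0281). No mouse lay between 41.2 and 59.0 CPM. Below this gap were 7 Control mice and no High-Active mouse, and above it were 3 Control mice (454, 457 and 477) and all 10 High-Active mice. Rpl30 ranged from 61.1 to 99.7 CPM in Control mice (median 76.6) and from 76.5 to 157 in High-Active mice (median 96.6). Its log2 fold change was 0.35 (SE 0.11, adjusted p = 0.0590), and the value of 157 CPM belonged to the single High-Active saline mouse 886. Rpl30 kept its call in 18 of the 20 fits that left out a mouse, and lost it without mouse 415 and without mouse 883.

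Rpl10a, Rpl13a, Rpl5 and Rpl7 were called with smaller differences. Rpl10a ranged from 44.9 to 73.5 CPM in Control mice (median 66.7) and from 62.4 to 92.7 in High-Active mice (median 82.1), and the log2 fold change was 0.30 (SE 0.08, adjusted p = 0.0318). Rpl13a, whose introns carry small nucleolar RNAs, ranged from 159 to 229 CPM in Control mice (median 197). In High-Active mice it ranged from 201 to 265 CPM (median 221), and the log2 fold change was 0.23 (SE 0.06, adjusted p = 0.0361). The exons of Rpl13a overlap those of Gm45713 on the same strand. Rpl5, which carries the 5S ribosomal RNA into the ribosome, had one of the smallest spreads of the family. It ranged from 160 to 200 CPM in Control mice (median 180) and from 183 to 216 in High-Active mice (median 200), and the log2 fold change was 0.15 (SE 0.04, adjusted p = 0.0333). Of its 100-base stretches, 91.1% occurred in another annotated gene, counted or not. Its exons overlap those of Fam69a on the opposite strand. Without a stated strand setting, the part of this overlap in its count was not tested. Rpl7 had the smallest difference of the 10, and the log2 fold change was 0.12 (SE 0.04, adjusted p = 0.0864), and it kept its call in 6 of the 20 fits that left out a mouse.

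Of the members with the widest differences, several were not called. Rpl29, a large-subunit protein, averaged 23.3 ± 10.5 CPM in Control and 32.5 ± 11.2 in High-Active mice (SD, n = 10 each), with a difference of 0.45 on the log2 scale (SE 0.20, adjusted p = 0.166). Rplp0, the base of the stalk, stood at 90.3 ± 20.6 and 112 ± 25.3 CPM (SD, n = 10 each; 0.31, SE 0.14, adjusted p = 0.166), while Rplp1 (-0.04, SE 0.06) and Rplp2 (0.06, SE 0.06), which bind to it, lay near 0. Rpsa was at 0.09 (SE 0.05, adjusted p = 0.247) and the pseudogene Rps12l1 at -0.32 (SE 0.17, adjusted p = 0.262).

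**Figure D2:**
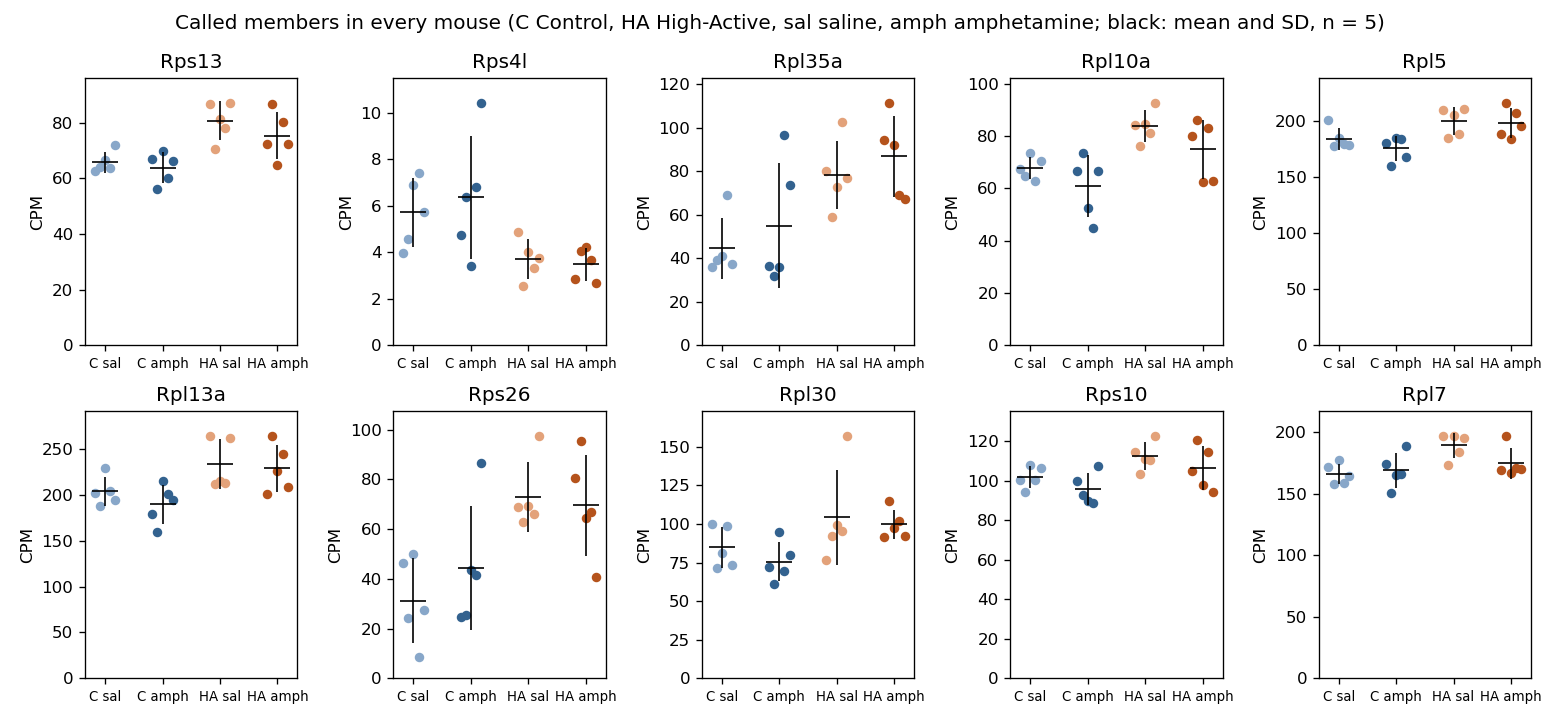
Level in CPM of the 10 called ribosomal protein genes in each of the 20 mice (points), with the mean and SD of each group of 5 mice (black). The lines overlap in every panel, and Rpl35a and Rps26 show Control mice far above the rest of their group, such as 96.5 CPM in mouse 454 and 86.6 CPM in mouse 457.

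Rpl10a and Rps10 lie 698053 bases apart on chromosome 17. Of the 33 other tested genes that start within 1000000 bases of Rpl10a, 14 were called between the lines (42.4%), and of the 33 around Rps10, 10 were called (30.3%), against 14.5% of all genes. These windows overlap. Around Rpl7, 3 of 8 were called (37.5%), and around Rpl5, 7 of 26 (26.9%). The share was 18.2% around Rps4l and 16.7% around both Rps26 and Rps13. Shares below that of all genes were those around Rpl13a (10 of 76), Rpl30 (1 of 11) and Rpl35a (1 of 24). Calls among neighbours thus did not go with all called members.

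The promoters of the members were searched for a pyrimidine run, because their messenger RNAs are known to start with one. Windows were available in RefSeq (GRCm38.p6) for 59 of the 84 tested members, with 70 start sites. A run of at least 6 C or T that reached into the 20 bases before or the 20 bases after the start, on the transcribed strand, was present in 46 of the 70 windows (65.7%) and in 43.9% of all 32851 windows of the table. The 7 called members with a window are shown with 40 bases before the start and 25 from it on, at the start sites that held a run, with the longest run in capitals. Rpl7, Rpl30 and Rps4l were the other called members.
Rps10, chr17:27635220-27635284 (minus strand): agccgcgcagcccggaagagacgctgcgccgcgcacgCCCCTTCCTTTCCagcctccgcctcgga
Rpl13a, chr7:45128721-45128785 (minus strand): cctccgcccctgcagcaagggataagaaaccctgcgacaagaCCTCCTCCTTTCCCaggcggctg
Rpl35a, chr16:33056442-33056506 (plus strand): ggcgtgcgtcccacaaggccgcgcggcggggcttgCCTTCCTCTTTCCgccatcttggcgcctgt
Rps26, chr10:128626482-128626546 (minus strand): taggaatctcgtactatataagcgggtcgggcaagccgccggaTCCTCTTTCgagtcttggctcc
Rps13, chr7:116334166-116334230 (minus strand): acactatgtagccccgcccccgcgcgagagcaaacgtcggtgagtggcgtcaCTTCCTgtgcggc
Rpl5, chr5:107900488-107900552 (plus strand): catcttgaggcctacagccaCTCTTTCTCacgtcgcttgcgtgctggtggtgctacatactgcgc
Rpl10a, first start, chr17:28328431-28328495 (plus strand): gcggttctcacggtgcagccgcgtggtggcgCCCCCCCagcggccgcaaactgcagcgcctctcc
Rpl10a, second start, chr17:28328525-28328589 (plus strand): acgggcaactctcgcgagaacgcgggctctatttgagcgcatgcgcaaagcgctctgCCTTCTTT
The run spanned the annotated start at Rps10 and Rpl35a (13 bases each), and began 2 bases after it at Rpl13a (14 bases) and 3 after it at Rps26 (9 bases). At the others it was shorter or further away. The 6 bases at Rps13 began 12 bases after the start, the 9 bases at Rpl5 ended 11 bases before it, and Rpl10a had 7 bases that ended 2 before its first start and 10 bases that began 17 after its second, of which the shown stretch holds the first 8. The stretch at the first start of Rpl10a also ends in a run of at least 7 pyrimidines, which is not in capitals. Rpl35a has 3 start sites in the table, of which 1 held a run. The match is a description of the sequence and was not related to any change in level.

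Many members share long stretches of sequence with other annotated genes, and their counts must be read with that in mind. The reads were 100 bases long. In the median tested member, 35.3% of the 100-base stretches of the transcript also occurred in another annotated gene, on either strand. Such a gene need not be in the count tables, and it can overlap the member itself. More than 50% of the stretches were shared in 33 members, and none in 5, among them Rpl22 and Rps27l. Near copies, here counted genes that are annotated as pseudogenes or are members themselves and hold at least 25% of the 25-base stretches, were found for 64 of the 84 members. The 279 copies that are not members summed to 436 to 651 CPM per mouse, against 8958 to 11994 CPM for the members.

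Rps26 and Rps26-ps1, whose sequences are printed above, had opposite levels from mouse to mouse, with the copy high where Rps26 was low. How reads were assigned to parent and copy was not tested. Rps26-ps1 was at 0.447 to 0.593 CPM in 4 mice, at 15.4 to 18.7 in 6, at 37.3 to 61.5 in 9 and at 84.5 in 1. The first range held 3 High-Active mice and the Control mouse 457, the second held 6 High-Active mice, and the last 2 ranges held 9 Control mice and 1 High-Active mouse. In mouse 477, which had 84.5 CPM on the copy, Rps26 was at its lowest, 8.43 CPM. In mouse 457, with 0.593 CPM on the copy, Rps26 was at 86.6 CPM. Summed with its copies, Rps26 ranged from 73.2 to 95.8 CPM in Control mice and from 78.4 to 98.0 in High-Active mice, and the log2 fold change between the lines went from 0.93 to 0.00. The sum did not carry the line difference of Rps26 alone.

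Rpl26, a large-subunit protein near the exit of the peptide tunnel, likewise had opposite levels to those of the pseudogene Gm15772 (chr5:3236431-3236868, plus strand). Gm15772 was at 0.975 to 1.92 CPM in 10 mice, at 65.0 to 81.9 in 9 and at 140 in mouse 369. In those same 10, 9 and 1 mice, Rpl26 was at 153 to 190, at 84.7 to 108 and at 25.8 CPM. The first range held 5 Control and 5 High-Active mice, and the second 4 Control and 5 High-Active mice. Mouse 369, alone in the last, is a Control mouse. Rpl26 summed with its copies ranged from 149 to 192 CPM over the 20 mice. Alone, its log2 fold change between the lines was 0.17 (SE 0.25, adjusted p = 0.707).

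The Rps3a set has 3 members, whose levels differed widely between mice. Rps3a1 (chr3:86137940-86142702, minus strand) is the protein-coding gene, and Rps3a2 (chromosome 14) and Rps3a3 (chromosome 13) are annotated as processed pseudogenes. Rps3a3 was at 0.180 to 0.794 CPM in 3 mice, all High-Active (192, 487 and 886), at 29.2 to 38.1 in 12 and at 54.1 to 70.7 in 5, of which 4 were Control mice. Rps3a1 was at its highest, 227 CPM, in mouse 487, and was at 65.9 CPM in mouse 407, where Rps3a2 and Rps3a3 were at 48.1 and 54.1 CPM. The sum with all copies ranged from 168 to 241 CPM. None of the 3 was called alone, with log2 fold changes between the lines of 0.41 (SE 0.22) for Rps3a1, -0.21 (0.43) for Rps3a2 and -0.66 (0.63) for Rps3a3.

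**Figure D3:**
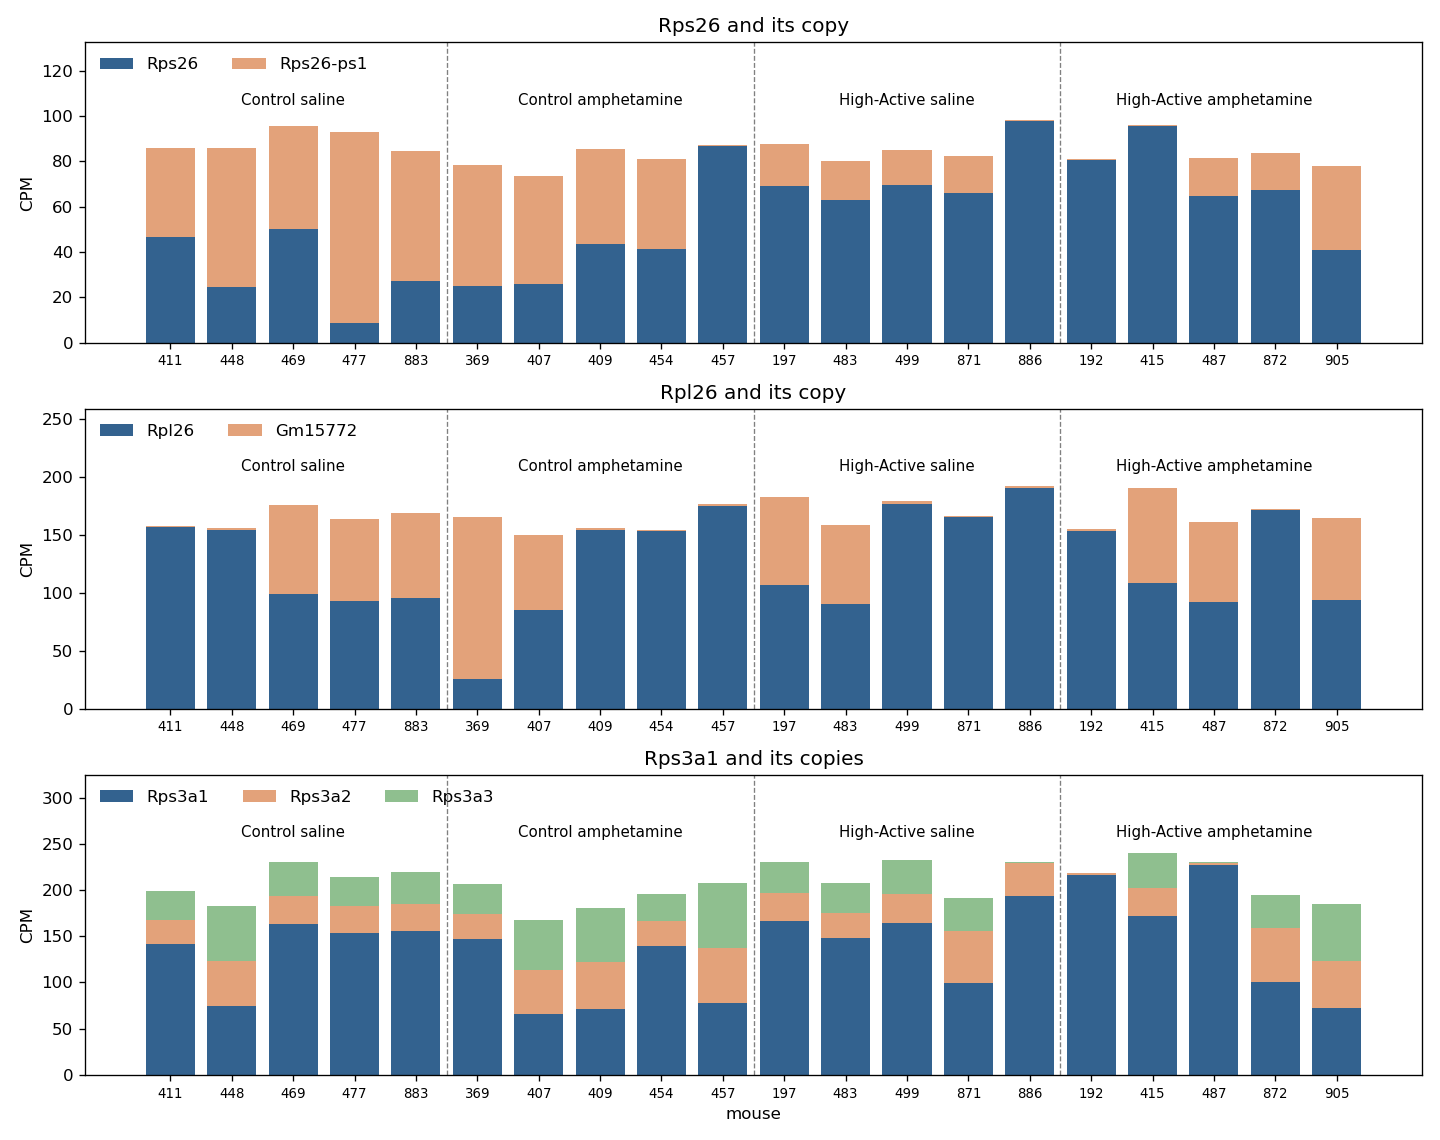
Level in CPM of Rps26, Rpl26 and Rps3a1 (blue) stacked with their main copies (orange and green) in each of the 20 mice, by group. The height of the stack stays within a narrow range (73.2 to 98.0 CPM for Rps26 with its copies), while the division within it changes from mouse to mouse.

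Rpl6 and Rpl6l are both members. Rpl6l, a processed pseudogene, was at 0.931 to 1.73 CPM in 14 mice, of which 9 were High-Active, at 14.3 to 17.4 in 5 and at 31.1 in the Control mouse 883. In mouse 883, Rpl6 was at its lowest, 120 CPM. Rpl6l had the lowest log2 fold change of the members, -1.90 (SE 0.71), just outside the threshold (adjusted p = 0.1005). Rpl6, Rpl6l and their copies together ranged from 156 to 221 CPM.

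Rps13 and Rpl10a, both called, also had copies whose counts differed between the lines. Rps13-ps1 was at 0 to 0.0309 CPM in 9 of the 10 High-Active mice and at 4.89 in the other, mouse 487, while all 10 Control mice were at 4.07 to 11.2 CPM. Its log2 fold change was -6.21 (SE 0.96, adjusted p = 0.000993). A fitted fold change against mice at 0 depends on the prior count and is no bound. Rps13 summed with its copies had a log2 fold change of 0.11 in place of 0.27 and was no longer called (adjusted p = 0.145). Rpl10a-ps1 was at 4.55 to 6.37 CPM in 8 High-Active mice and 1 Control mouse, at 11.8 to 14.9 in 7 Control and 2 High-Active mice, and at 21.1 and 21.7 in the Control mice 409 and 454. In these last 2 mice Rpl10a was at 52.3 and 44.9 CPM, the lowest of all. Rpl10a with its copies kept its call at a smaller size (log2 fold change 0.14, SE 0.05, adjusted p = 0.0809).

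Refitting the whole table with each member summed with its near copies was chosen after the data were seen. It gave 81 rows for the members, of which 8 were called between the lines (7 higher), against 14.6% of all rows tested. Of the 10 genes called alone, 7 were also called when summed. These were Rps4l, Rpl35a, Rpl13a, Rpl5, Rpl30, Rps10 and Rpl10a, while Rps26, Rps13 and Rpl7 were not. Rps2 was called only when summed (log2 fold change 0.23, SE 0.06, adjusted p = 0.0261), against -0.08 (SE 0.11) alone. Of the 81 rows, 69 had a log2 fold change above 0, and the median was 0.05. The median of the family was 0.05 with and without the copies. Of the widest called differences, those of Rps4l (-0.75) and Rpl35a (0.71) stayed and that of Rps26 did not.

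The within-group SD of log2 CPM had a median of 0.127 over the tested members and 0.154 over all tested genes, and it was over 0.25 in 19 members. Of these 19, 18 had a counted near copy, and 12 were at 0.25 or under once summed. The SD went from 0.683 to 0.103 for Rps26, from 0.684 to 0.1002 for Rpl26, from 0.545 to 0.139 for Rps3a1 and from 0.321 to 0.0942 for Rps6, the target of the S6 kinases. It changed little for Rpl35a (0.459 alone and 0.449 summed), Rpl36a (0.383 and 0.382), Rps4l (0.420 and 0.419), Rps18 (0.279 and 0.281) or Rpl30 (0.262 and 0.255). The smallest SD was that of Rpl15, 0.0633. Copies that are not annotated as genes could not be summed.

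**Figure D4:**
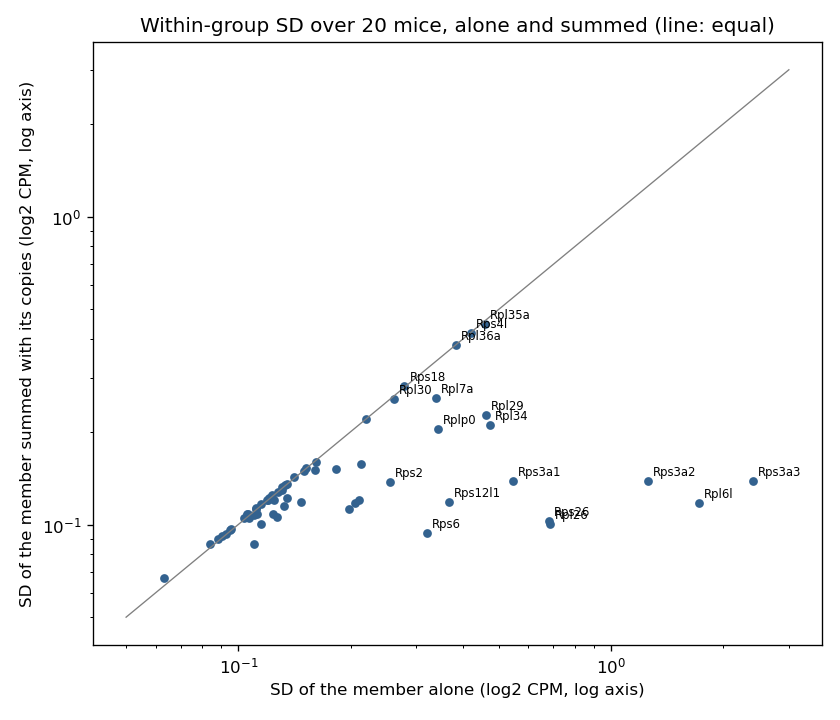
Within-group SD of log2 CPM of each member with a near copy, alone (horizontal, log axis) and summed with its copies (vertical, log axis), and the line of equal values. Rps26 and Rpl26 lie far below the line, at 0.103 and 0.1002, while Rpl35a, Rps4l and Rpl36a lie on it.

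After amphetamine the family leaned slightly towards lower levels, and no single gene passed the test. The log2 fold change (amphetamine over saline, averaged over both lines) was below 0 in 72 of the 84 members (85.7%), against 53.0% of all tested genes. Its median was -0.08 over the members and -0.01 over all genes, with quartiles of -0.09 and -0.05 over the members. At an adjusted p under 0.1, edgeR's quasi-likelihood test called 0 members and 0% of all genes. At an unadjusted p under 0.05 there were 7 members (8.33%), against 12.5% of all genes, so members with small p-values were no more frequent than elsewhere. DESeq2 called 391 genes but 0 members, limma-voom called 0 of either, and the likelihood-ratio test with robust dispersions called 458 genes with 1 member, Rpl14. Among the 65 members with a within-group SD of 0.25 or under, 63 were below 0. The share among all genes of such a spread is not given here, and the members were measured in the same mice.

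**Figure D5:**
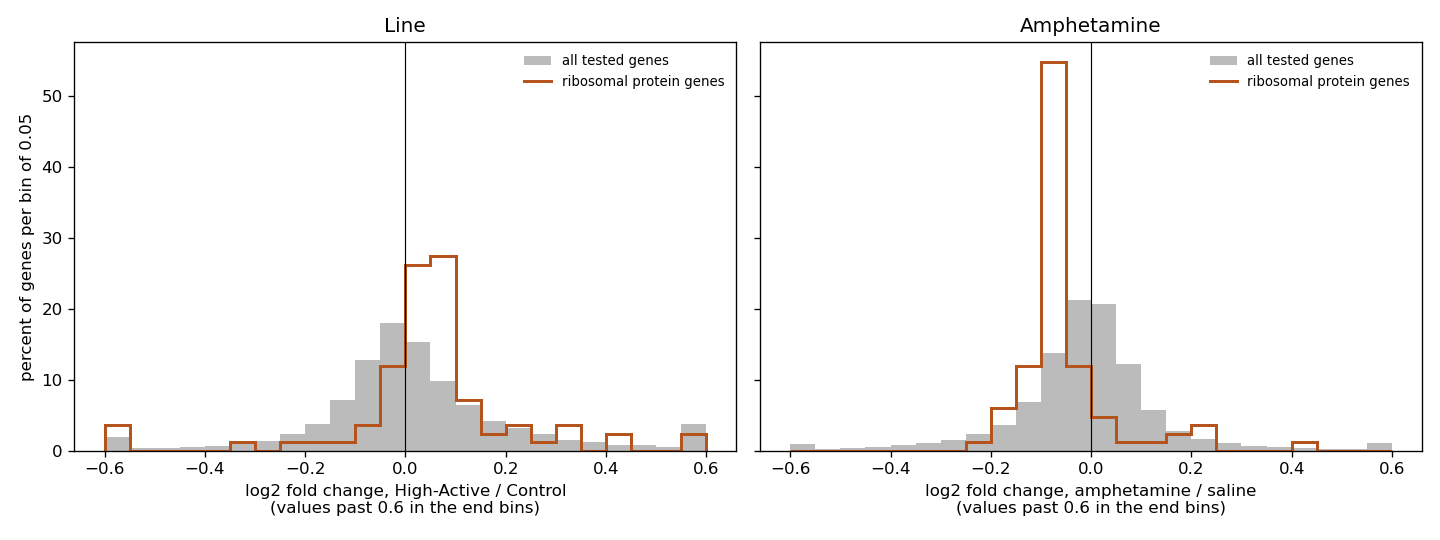
Percent of genes in each bin of log2 fold change, for the lines (left) and for amphetamine (right), with all 14792 tested genes in grey and the 84 ribosomal protein genes as the orange line. The members gather just above 0 for the lines (median 0.05) and just below 0 for amphetamine (median -0.08).

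The smallest p-values for amphetamine were those of Rpl14 and Rps15. Rpl14 averaged 158 ± 5.58 CPM after saline and 139 ± 14.0 after amphetamine in Control mice, and 152 ± 7.22 and 145 ± 15.0 in High-Active mice (SD, n = 5 each). Its log2 fold change was -0.12 (SE 0.05, adjusted p = 0.300). Rps15, one of the most abundant members per kb, averaged 222 ± 12.4 CPM after saline and 182 ± 29.1 after amphetamine in Control mice, and 213 ± 23.9 and 204 ± 16.1 in High-Active mice (SD, n = 5 each). The log2 fold change of Rps15 was -0.17 (SE 0.07, adjusted p = 0.300), and in High-Active mice the treatments overlapped within their SDs. Small p-values were also those of Rpl22l1, with -0.13 (SE 0.06, adjusted p = 0.375), and Rpl39, with -0.09 (SE 0.04, adjusted p = 0.393). Of the stalk genes, Rplp1 (-0.07) and Rplp2 (-0.11) were below 0 and Rplp0 was above (0.16), none of them called, and Rpsa stood at -0.10.

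Both lines gave medians below 0 for amphetamine when fitted alone, -0.10 for Control and -0.06 for High-Active mice. The summed level of the 88 genes was 10663 ± 413 CPM after saline and 10042 ± 789 after amphetamine in Control mice, and 11064 ± 744 and 10670 ± 819 in High-Active mice (SD, n = 5 each), and the mice overlapped in both lines. Sums of other cell-type markers had different medians in the 2 treatments, with wide overlap. The sum of the 12 cortical markers ranged from 174 to 851 CPM after saline (median 328) and from 230 to 991 after amphetamine (median 690). The sum of the 8 choroid plexus markers ranged from 26.3 to 843 CPM after saline (median 143) and from 22.3 to 915 after amphetamine (median 44.9). None of the 12 and 8 markers was called for amphetamine. With cortical and oligodendrocyte scores as covariates the median of the members was -0.09, and the part of the choroid plexus markers was not tested.

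The response to amphetamine was not called different between the lines in any member. The interaction was called in 0 members and 0% of all genes. DESeq2 and limma-voom also called 0 genes, and the likelihood-ratio test called 6 genes but 0 members. At an unadjusted p under 0.05 there was 1 member (1.19%), against 2.97% of all genes. This was Rpl29, with an interaction of 0.92 on the log2 scale (SE 0.40). Next were Rpl6l (2.68, SE 1.40), Rps15 (0.23, 0.14), Rpl7 (-0.14, 0.08) and Rpl27 (0.22, 0.14). Rpl29 and Rpl6l are members with wide spreads and near copies, with within-group SDs of 0.461 and 1.72 alone. The interaction was above 0 in 59 of the 84 members, but in 30 when mouse 415 was left out. The median interaction of the members was 0.03, and it ranged from -0.0151 (without mouse 415) to 0.0661 (without mouse 886) when single mice were left out, and it was also below 0 without mouse 407 and without mouse 483 (-0.0011 each).

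The counts of called genes in the lists around the ribosome stand against 14.5% of all tested genes. Of 5 ribosomal protein genes that the naming rule does not reach, 1 was higher and 1 lower in High-Active mice. Rpl36al, a retrogene paralog of Rpl36a, was higher (log2 fold change 0.11, SE 0.04, adjusted p = 0.0728), and Fau, which encodes a fusion of a ubiquitin-like protein with a small-subunit protein, was lower (-0.23, 0.05, 0.0109). Rack1, a scaffold on the small subunit, was not called (0.04, 0.03, 0.441). Of 25 translation factors and other TOP messenger RNAs, 0 were higher and 1 was lower (Hnrnpa1, -0.09, SE 0.03, adjusted p = 0.0959), with a median of 0.02. Of 33 ribosome assembly genes tested, 0 were higher and 1 was lower (Tsr1, -0.11, SE 0.03, adjusted p = 0.0569), with a median of -0.03 and 10 of 33 above 0. In the mitochondrial ribosome, 1 of 76 genes tested was higher and 5 were lower, with a median of -0.02.

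In TOR signaling 3 of 18 genes were called, and among the host genes of small nucleolar RNAs 3 of 10, against the same 14.5%. Of the TOR and S6 kinase genes, 2 were higher and 1 was lower. Tsc2, an inhibitor of TOR complex 1, was lower (log2 fold change -0.25, SE 0.05, adjusted p = 0.00672). Rps6ka2, a kinase of the RSK family, was higher (0.28, 0.06, 0.00731), as was Ddit4, a stress-induced inhibitor of TOR complex 1 (0.27, 0.07, 0.0165). Of 10 host genes, 3 were higher and 0 lower. Gas5, a TOP RNA whose introns carry small nucleolar RNAs, had the smallest p-value (1.06, SE 0.15, adjusted p = 0.000495), followed by Snhg12 (0.28, 0.08, 0.0456) and Snhg20 (0.20, 0.06, 0.0576). Of 29 tested rows named as Rpl or Rps pseudogenes, 3 were higher and 5 lower, and these were led by Rps13-ps1, Rps15a-ps7 (2.34, 0.38, 0.00149) and Rps19-ps6 (-3.09, 0.60, 0.00530). For amphetamine, 0 genes of these lists were called. Below 0 were 21 of the 25 translation factors and other TOP messenger RNAs and all 5 of the ribosomal protein genes outside the rule. So were 24 of 33 ribosome assembly genes, 52 of 76 mitochondrial ribosomal protein genes and 21 of 29 pseudogene rows. In TOR signaling 10 of 18 were below 0, and among the host genes 6 of 10, against 53.0% of all tested genes.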

How the data were processed

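The authors aligned paired 100-base reads to GRCm38 with TopHat2 2.0.10 and used HTSeq 0.6.1 for counts per Ensembl gene (versions per the submitters' notes). The strand setting of the counting is not given in the sources used here. The deposited counts per gene and mouse were used as given, without normalization, and 5 rows that name no gene were left out of library sizes. Of 39179 gene identifiers, 37693 matched a symbol in GENCODE M21. Genes with more than 1 CPM in at least 3 mice were scaled by TMM and tested with edgeR 4.0.16 (R 4.3.3), by the quasi-likelihood test on 4 group means, with Benjamini-Hochberg adjustment over all 14792 genes and a threshold of 0.1. The SE of a log2 fold change was derived from this test, as its size divided by the square root of the F statistic. The pipeline was tested on simulated counts. Alternatives were DESeq2 1.42.0, limma-voom 3.58.1 with a family block, other scalings, filters and subsets, and leaving out each mouse. CPM values use TMM library sizes, and log2 CPM a prior count of 2. Shared stretches compare annotated transcripts only, since no genome sequence was used.

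The members and gene lists were chosen with earlier results of these data known. Genes were named by a rule: members called between the lines, the 5 highest and 5 lowest line differences, the 5 smallest p-values for amphetamine and for the interaction, the stalk genes and Rpsa, the paralogs with their parents, the 3 highest and 3 lowest levels per kb, the untested members, and up to 3 genes per list. Pseudogene copies, Rps2, Rps6, Rpl15, Rps18 and Rpl36a were named after their values were seen. Some single genes are not reported here.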

Additional observations from a re-analysis of the deposited data

Results flagged for a closer look

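The levels of 24 ribosomal protein genes and copies and of 7 summed sets were searched for a mouse far from the other 4 of its group (Dixon's test at the 95% level). Of the 124 groups, 15 held such a mouse, and chance flags about 1 in 20 groups. The copies were named after their values were seen, and the summed sets hold the same counts again. The share flagged can therefore not be read against that of chance. No explanation was tested.

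In the Control saline group, mouse 448 stood apart in all 3 Rps3a genes, with a log2 CPM of 6.229 for Rps3a1 (nearest other mouse 7.15), 5.596 for Rps3a2 (nearest 4.92) and 5.886 for Rps3a3 (nearest 5.20). It was low on the protein-coding gene and high on both copies. Mouse 477 of that group was high in Rpl35a, with 6.109 (nearest 5.36), and still so with the copies added, with 6.122. Mouse 883 had 2.420 for Rps13-ps1 (nearest 3.27), and was the one mouse of its group with counts on Rps13-ps2, at -0.504 (the other mice at -4.39).

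In the Control amphetamine group, mouse 457 had -0.641 for Rps26-ps1 (nearest 5.30). In the High-Active saline group, mouse 886 had 6.610 for Rps26 (nearest 6.12), -0.995 for Rps26-ps1 (nearest 3.95) and -0.248 for Rps3a3 (nearest 5.02). In the High-Active amphetamine group, mouse 905 had 4.127 for Rpl6l (nearest 0.68) and 2.610 for Gm6136 (nearest 0.71), both copies of Rpl6. Mouse 487 had 2.303 for Rps13-ps1 (nearest -3.67), and mouse 415 had 7.624 for Rpl7 (nearest 7.42).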

How the results depend on the processing

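Between the lines 10 members were called. The count was 2 with mice of the same parents summed, 4 in saline-treated mice only, 1 in amphetamine-treated mice only (Rpl29) and 2 with the cortical and oligodendrocyte scores as covariates. The first 3 of these use fewer samples, and the cause of the last was not tested. It was 8 to 15 under the other alternatives, with 14 for DESeq2 and 15 for the likelihood-ratio test, and 7 (without mouse 415) to 15 (without mouse 483) with single mice left out. The share of all genes called between the lines is given only for the main fit and the fit with copies summed. The other counts can therefore not be set against a background. For amphetamine, 0 members were called, except 1 with the likelihood-ratio test with robust dispersions and 1 without mouse 415 (0 to 1 with single mice left out), Rpl14 in both. For the interaction the count was 0 under every alternative run. The median of the members for the lines and for amphetamine kept its sign under every alternative run, each scaling included, between 0.017 and 0.0705 for the lines and between -0.0969 and -0.0571 for amphetamine (0.0279 to 0.0685 and -0.0983 to -0.0578 with single mice left out). No line difference of a called member changed direction, while that of Rps26 went to 0.0039 with the copies summed. Without the 13 protein genes of the mitochondrial genome in the total, the members took 1.14% of counts in Control and 1.21% in High-Active mice. The groups share no replicate numbers, so the family was used as the block, with limma-voom (11 members called between the lines, 0 for amphetamine, 0 for the interaction). At this depth the untested paralogs had too few counts to compare.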
